A study of Mus musculus with 10 samples.

Results

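The genes described here encode the Wnt ligands, their Frizzled receptors and the secreted antagonists of the Sfrp and Dkk families. They were chosen by name alone, as every protein-coding gene of the NCBIM37 (mm9) annotation whose symbol is Wnt, Fzd, Sfrp or Dkk followed by a digit. This gave 37 of 22380 protein-coding genes, of which 19 were Wnt, 10 Fzd, 4 Sfrp and 4 Dkk genes. What was recorded for each gene was how many bases of its promoter and body lay inside peaks of H3K27me3, the trimethyl mark that Polycomb repressive complex 2 (PRC2) writes on lysine 27 of histone H3.

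Wnt proteins are secreted lipid-modified signals that bind Frizzled receptors together with the co-receptors Lrp5 and Lrp6, and in the canonical branch this stabilises β-catenin, which then acts with Tcf and Lef factors on target genes. Sfrp proteins bind Wnts outside the cell, and Dkk1, Dkk2 and Dkk4 bind the Lrp co-receptors, whereas Dkk3 is a divergent family member. Many of these developmental genes are classical Polycomb targets, silent and marked by H3K27me3 in lineages that do not use them, and Wnt signals are known to act on early B-cell precursors.

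Peaks of H3K27me3 were examined in 5 mouse lymphoma lines. All 5 derive from B cells of C57BL/6J mice that carry the Eμ-Myc transgene, in which the immunoglobulin heavy chain enhancer drives Myc in B cells, and are Cdkn2a-/-. The Parental line had not been selected with the drug, and R100, R500, R1000 and R4000 were obtained from it by stepwise selection in mafosfamide, an alkylating agent, at 100, 500, 1000 and 4000 nM, with harvest at days 10, 18, 23 and 37 per the study's figure legend, although its other descriptions give a shorter escalation. Chromatin was taken from all lines while they grew without drug, so the lines differ in their history and not in the drug present. Each resistant line was taken once from the dose escalation and, like Parental, has 1 peak list, which gives positions on a grid of 50 bp and no height, count or p-value. There is therefore no spread between replicates, no difference between lines was tested, and the sequencing depth behind the lists is unknown.

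The lists differed in length before any gene was considered. Parental held 10778 distinct peaks over 1.63 Mb, R100 25180 over 5.04 Mb, R500 21888 over 4.53 Mb, R1000 9595 over 1.61 Mb and R4000 6820 over 1.07 Mb. The part of this unequal length in the differences between lines was not tested. Values from lists cut to equal covered length (the widest peaks of each list up to 1073550 bp) are given where they change a result. This cut goes by peak width and kept unlike numbers of peaks. It kept 745 in R100 and 772 in R500, against 3307 in Parental, 2889 in R1000 and all 6820 in R4000. Narrower peaks were thus dropped in R100 and R500 and kept in the other lines. No covered base lay within 5 kb of Cdkn2a in any line. Among B-cell markers, the promoter of Cd79b was covered over 0, 1000, 150, 150 and 0 bp from Parental to R4000, those of Cd22 and Ebf1 were covered in 1 line each, and Cd79a, Ms4a1 and Blk had no covered base. Of 6 T-cell markers only Gata3 had a covered promoter, at 900, 1050, 1300, 150 and 0 bp, and 4 myeloid markers had no covered base. The lists hold no expression values, so the cell type itself could not be checked.

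Stretches that carried the mark in every line, and places that did not, are shown here so that the sequence under the peaks can be read beside the values. They are from the mm9 genome, written 5′ to 3′ on the strand of the gene, with each CG dinucleotide in capitals. The Dkk3 stretch (chr7:119302651-119302800, minus strand) ended 80 bp upstream of the transcription start site (TSS), and the Fzd4 stretch (chr7:96553197-96553450, plus strand) was wholly coding. The Wnt10a stretch (chr1:74838751-74838950, plus strand) held 107 coding bases and 93 noncoding bases of the gene, and the Wnt6 stretch (chr1:74818751-74819000, plus strand) held 46 and 204. All 4 were covered from end to end in all 5 lines.
Dkk3: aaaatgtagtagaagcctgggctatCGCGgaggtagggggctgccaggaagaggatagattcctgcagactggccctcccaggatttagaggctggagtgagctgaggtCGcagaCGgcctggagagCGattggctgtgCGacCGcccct
Fzd4: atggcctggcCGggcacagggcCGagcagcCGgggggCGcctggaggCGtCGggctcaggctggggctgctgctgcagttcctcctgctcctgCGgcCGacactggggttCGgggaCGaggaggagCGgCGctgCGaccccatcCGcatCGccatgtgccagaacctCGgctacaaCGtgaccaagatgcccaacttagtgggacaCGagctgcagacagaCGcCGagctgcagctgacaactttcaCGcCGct
Wnt10a: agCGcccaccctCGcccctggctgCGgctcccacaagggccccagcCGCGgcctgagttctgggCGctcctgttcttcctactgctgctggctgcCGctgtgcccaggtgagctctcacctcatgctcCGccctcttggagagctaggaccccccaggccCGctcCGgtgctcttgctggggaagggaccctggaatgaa
Wnt6: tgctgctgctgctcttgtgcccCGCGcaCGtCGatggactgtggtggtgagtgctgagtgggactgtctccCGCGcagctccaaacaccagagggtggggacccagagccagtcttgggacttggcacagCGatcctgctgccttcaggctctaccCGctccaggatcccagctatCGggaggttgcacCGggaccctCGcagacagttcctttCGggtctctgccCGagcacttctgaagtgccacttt

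The Wnt11 stretch (chr7:105984751-105985050, plus strand) lay in the gene, outside coding sequence, and was covered fully in R100, R500 and R1000 and not at all in Parental and R4000. The Sfrp1 stretch (chr8:24521745-24521894, plus strand) occupies the same place relative to the TSS as that of Dkk3, from 229 to 80 bp upstream, and no list held a peak there.
Wnt11: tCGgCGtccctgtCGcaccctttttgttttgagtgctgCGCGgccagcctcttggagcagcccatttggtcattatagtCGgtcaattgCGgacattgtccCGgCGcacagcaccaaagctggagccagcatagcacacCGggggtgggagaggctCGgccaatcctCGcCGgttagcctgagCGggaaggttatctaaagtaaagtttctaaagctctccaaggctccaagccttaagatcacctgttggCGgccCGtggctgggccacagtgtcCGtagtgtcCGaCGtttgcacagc
Sfrp1: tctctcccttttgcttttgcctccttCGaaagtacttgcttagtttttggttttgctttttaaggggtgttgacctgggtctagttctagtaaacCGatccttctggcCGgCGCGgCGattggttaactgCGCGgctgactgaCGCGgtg

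Sfrp1 was picked because, of the members with no peak, it had the highest ratio of observed to expected CG dinucleotides around the TSS. That choice favoured a stretch rich in them. The unmarked Sfrp1 stretch held 10 CG dinucleotides in 150 bp, and the Dkk3 stretch of equal length, marked in every line, held 7. The coding stretch of Fzd4 held 22 in 254 bp, that of Wnt10a 10 in 200 bp, that of Wnt6 13 in 250 bp and that of Wnt11 19 in 300 bp. CG dinucleotides were thus present in the marked stretches and in this chosen unmarked one.

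A promoter was taken as 2 kb on each side of the TSS and called covered when at least 150 bp of it, 3 bins of the grid, lay in peaks. By this measure 12 of 37 Wnt, Fzd, Sfrp and Dkk promoters (32.4%, 95% Wilson interval 19.6 to 48.5) were covered in Parental, against 5.25% of all protein-coding promoters. In R100 21 (56.8%, 40.9 to 71.3) were covered, against 17.4% of all, and in R500 19 (51.4%, 35.9 to 66.6), against 13.3%. R1000 covered 13 (35.1%, 21.8 to 51.2), against 6.92% of all, and R4000 11 (29.7%, 17.5 to 45.8), against 5.50%. The share was thus above that of all genes in each line, and with the full lists it was highest in R100 and lowest in R4000. At equal covered length the order turned, with 7 covered in R100 and in R500 and 11 in each of Parental, R1000 and R4000. The share of all protein-coding promoters was not computed under this cut, so whether it turned likewise is unknown. These intervals cover the counting of genes only.

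**Figure D1:**
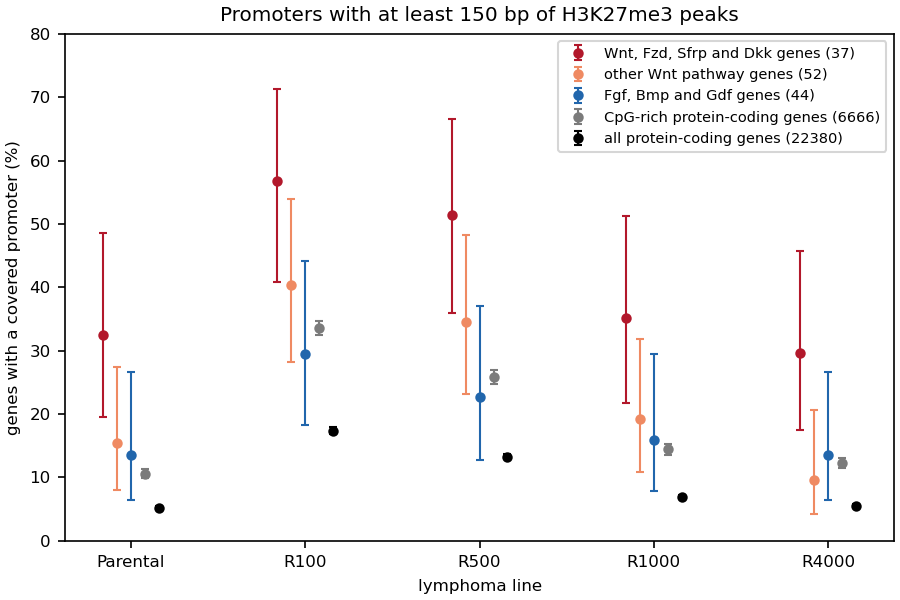
Percent of genes with a covered promoter (vertical axis) in each line (horizontal axis) for the 37 Wnt, Fzd, Sfrp and Dkk genes, other Wnt pathway genes, Fgf, Bmp and Gdf genes, CpG-rich genes and all protein-coding genes; points are shares and bars 95% Wilson intervals. The points for the 37 genes, with the full lists, run from 29.7% in R4000 to 56.8% in R100, while all protein-coding genes run from 5.25% in Parental to 17.4% in R100.

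The promoters sorted into a few patterns. Covered in all 5 lines were 9 members (24.3%, 13.4 to 40.1), against 3.17% of all protein-coding genes: Wnt1, Wnt6, Wnt10a, Wnt10b, Wnt16, Fzd2, Fzd4, Fzd7 and Dkk3. Covered in R100, R500 or both and in no other line were 7 (18.9%), against 11.0% of all, and these were Wnt5b, Wnt7a, Wnt7b, Wnt8a, Wnt9a, Wnt9b and Fzd5. The remaining 6 covered members each had a pattern of their own. Covered in no line were 15 (40.5%), against 79.9% of all. The count covered in all 5 lines was sensitive to the settings, falling to 4 with 1 kb on each side, 1 with the window of 5 kb upstream alone and 4 with lists of equal covered length.

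Relative to Parental, the covered bases of a promoter had to differ by at least 150 bp to be counted. In R100 21 promoters were covered over more bases and 0 over fewer, where 16.7% and 0.268% of all protein-coding promoters did so. In R500 18 were covered over more and 0 over fewer, against 12.5% and 0.232% of all. In R1000 the counts were 6 and 6, against 4.04% and 1.81%, and in R4000 3 and 6, against 2.68% and 2.98%. The direction in R100 and R500 was therefore a gain at every member that differed, and in R1000 and R4000 gains and losses stood side by side. All 4 comparisons share the Parental list. At equal covered length R100 had 5 members with more bases and 7 with fewer and R500 6 and 6, so the one-sided gain in these lines was not seen there. With lists of equal number R100 had 18 with more and 1 with fewer, and R500 14 and 0. The shares of all protein-coding promoters under these cuts were not computed. Between successive lines, R500 had more covered bases than R100 at 6 members and fewer at 12, against 4.31% and 9.43% of all genes. R1000 had more than R500 at 0 and fewer at 18, against 0.532% and 11.5%, and R4000 had more than R1000 at 3 (Wnt10a, Fzd2 and Fzd3) and fewer at 9, against 1.80% and 4.36%.

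Summed over the 37 promoters, covered length was 7.51 kb for Parental, 27.1 kb for R100, 24.4 kb for R500, 8.44 kb for R1000 and 5.60 kb for R4000. These are 3.61, 3.25, 1.12 and 0.746 times the Parental sum, and the same ratios over all protein-coding promoters were 3.83, 3.30, 1.30 and 0.925. The group therefore followed the promoters of the genome in order, with lower ratios in each line. The median member had 0, 300, 150, 0 and 0 covered bp from Parental to R4000, while the median of all protein-coding genes was 0 in each line. As a share of each list's covered bases the group took 0.460, 0.538, 0.538, 0.523 and 0.522%. Lists of equal covered length gave ratios of 1.57 in R100 and 1.52 in R500, and lists of equal number 3.26 and 3.18. In the 5 kb upstream of the TSS the ratio of R1000 was 0.883.

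**Figure D2:**
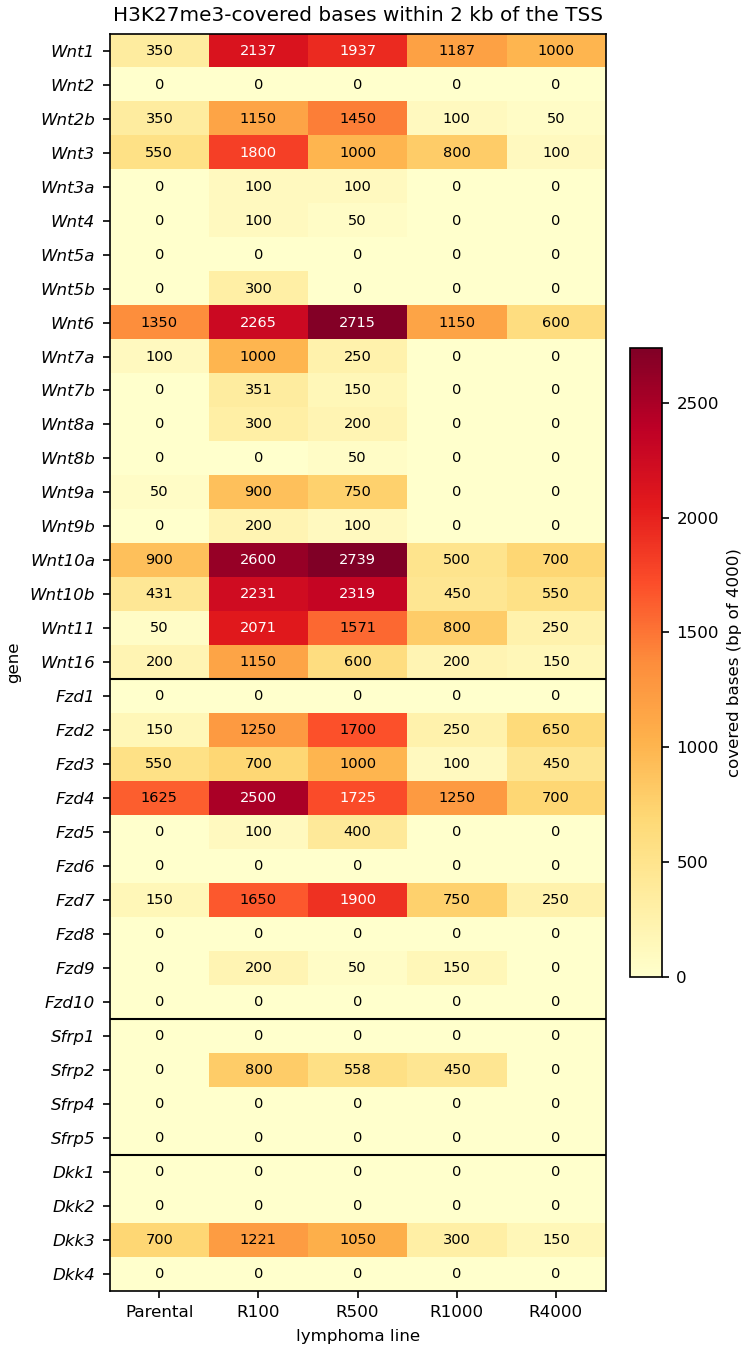
Covered promoter bases (bp of the 4000 bp around the TSS, colour and printed value) for each of the 37 genes (rows, in the order Wnt, Fzd, Sfrp and Dkk, separated by lines) in the 5 lines (columns). Values are highest in R100 and R500, up to 2739 bp for Wnt10a in R500, and 12 rows are 0 in every line.

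Among the ligands, Wnt6 and Wnt10a, neighbours that lie in the same orientation on chromosome 1 (chr1:74818466-74850753, 6.20 kb apart), had the most covered promoter bases of the ligands in R500. Wnt6, expressed in developing epithelia, had 1350 covered promoter bp for Parental, 2265 for R100, 2715 for R500, 1150 for R1000 and 600 for R4000. Wnt10a, known for its role in tooth and hair development, had 900, 2600, 2739, 500 and 700 bp in the same order. Both were highest in R500 and below Parental in R1000 and R4000. The Wnt10a difference of -200 bp in R4000 stayed at the minimum or beyond in 1 of 6 alternatives and was 250 bp in the 5 kb upstream, and its R1000 difference was -61 bp there. The Wnt6 difference was 0 bp in R100 at equal covered length and -65 bp in R1000 within 1 kb of the TSS. By covered promoter bases Wnt6 ranked 80th of all 22380 protein-coding genes in Parental and 131st, 53rd, 163rd and 317th in the resistant lines by rising dose, and Wnt10a 207th in Parental and 76th, 51st, 578th and 241st in them.

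From the start of Wnt6 to the end of Wnt10a, 4.55 kb lay in peaks for Parental, 10.6 kb for R100, 11.5 kb for R500, 3.90 kb for R1000 and 3.85 kb for R4000. The longest run of peaks lay away from the starts. From 6.86 to 15.0 kb downstream of the Wnt10a start, at the end of the gene and beyond, 3100 of 8150 bp lay in peaks for Parental, 5500 for R100, 5900 for R500, 3400 for R1000 and 2350 for R4000. Around the last exon of Wnt6, 12.2 to 13.5 kb from its start, coverage was 650, 800, 1100, 50 and 850 bp, so there R1000 was the low line and R4000 was above Parental.

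**Figure D3:**
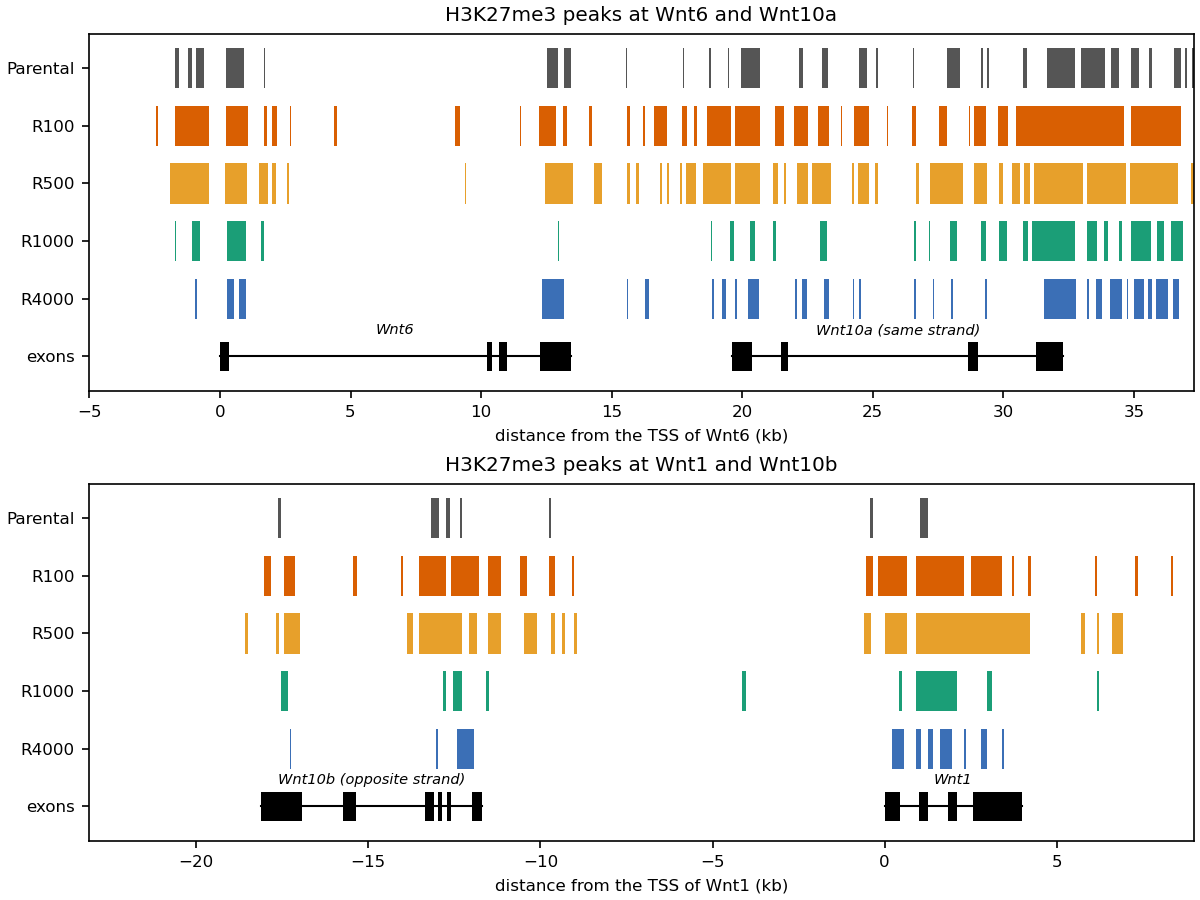
H3K27me3 peaks (coloured blocks, 1 row per line) and exons (black blocks joined by the gene's extent) at Wnt6 and Wnt10a (top) and Wnt1 and Wnt10b (bottom), by distance in kb from the TSS of Wnt6 or Wnt1. The peaks over Wnt10a widen in R100 and R500 and are densest near its last exon in all lines, and the Wnt1 body carries few peaks in Parental and is covered over 93.4% of its length in R500.

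Wnt1 and Wnt10b form a second pair, on chromosome 15 (chr15:98602184-98624268), with starts 11.7 kb apart and divergent orientation. Wnt1, the founding member of the family and a midbrain patterning signal, had 350 covered promoter bp for Parental, 2137 for R100, 1937 for R500, 1187 for R1000 and 1000 for R4000. Every resistant line was therefore above Parental by at least 650 bp. Over the 3981 bp of the gene itself the covered share was 6.28% for Parental, 75.7% for R100, 93.4% for R500, 36.4% for R1000 and 31.4% for R4000. Its rank among all genes went from 643rd in Parental to 162nd, 216th, 159th and 116th. Equal covered length gave 250, 1087, 1087, 1087 and 1000 bp, higher in all 4 resistant lines. The coverage lay mostly downstream of the TSS, and in the 5 kb upstream the difference from Parental was 287 bp for R100, 100 bp for R500, 0 bp for R1000 and -100 bp for R4000. Within 1 kb of the TSS that of R1000 was 87 bp.

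Wnt10b, which acts in bone and mammary development, differed from its neighbour in R1000 and R4000. Its promoter had 431 covered bp for Parental, 2231 for R100, 2319 for R500, 450 for R1000 and 550 for R4000, so that R1000 and R4000 lay within 150 bp of Parental. At equal covered length it had 250, 0, 1250, 250 and 550 bp, and the R100 gain was lost. The whole span of the pair held 0.900 kb in peaks for Parental, 6.45 kb for R100, 7.27 kb for R500, 2.20 kb for R1000 and 1.85 kb for R4000.

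Wnt11, a ligand of the non-canonical branch on chromosome 7 (chr7:105983622-106003705), was the only member covered in all 4 resistant lines and not in Parental, a pattern shown by 0.867% of all protein-coding genes. Its promoter had 50 covered bp for Parental, 2071 for R100, 1571 for R500, 800 for R1000 and 250 for R4000. All 4 resistant lines were above Parental by 200 bp or more, least in R4000. Cutting the lists to equal covered length left 0, 1421, 1271, 650 and 250 bp. The R1000 difference from Parental was 100 bp within 1 kb of the TSS and 71 bp in the 5 kb upstream, under the minimum. The intronic stretch printed above belongs to this gain in R100, R500 and R1000 and does not extend to R4000. From the alternative start of Wnt11 with the most covered bases, Parental had 300 bp and the resistant lines 2196, 1900, 1000 and 550 bp, so Parental then passed the minimum.

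Wnt3, a canonical ligand of early gastrulation, had 550 covered promoter bp for Parental, 1800 for R100, 1000 for R500, 800 for R1000 and 100 for R4000. Wnt2b, a canonical ligand of several developing organs, had 350, 1150, 1450, 100 and 50 bp. Wnt16, known from bone and joint, had 200, 1150, 600, 200 and 150 bp. All were highest in R100 or R500 and differed in where they ended, with Wnt2b under the minimum in R1000 and R4000, Wnt3 in R4000 alone and Wnt16 at or above it throughout. At equal covered length the difference from Parental was -300 bp for Wnt3 in R500, -150 bp for Wnt2b in R100 and -150 bp for Wnt16 in both.

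The ligands covered in R100 and R500 alone had little or nothing elsewhere. Wnt7a, a limb and nervous system ligand, had 100 covered bp in Parental, 1000 in R100, 250 in R500 and 0 in R1000 and R4000. Wnt9a, a joint and skeletal ligand, had 50, 900, 750, 0 and 0 bp. Wnt7b, which acts in lung and kidney, had 351 bp in R100 and 150 bp in R500 and 0 bp in the other lines. Wnt8a, a ligand of the early embryo, had 300 and 200 bp, Wnt9b, needed for kidney tubules, 200 and 100 bp, and Wnt5b, a relative of the non-canonical ligand Wnt5a, 300 and 0 bp in R100 and R500. None of these 6 had a covered promoter base in any line when the lists were cut to equal covered length.

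Wnt5b also shows how the choice of start matters. From the transcript start with the most peaks its window held 450 bp for Parental, 700 for R100, 850 for R500, 50 for R1000 and 0 for R4000. A region 91.8 to 94.5 kb into the gene, 447 bp from another annotated start, held 350, 600, 1350, 50 and 150 covered bp, and one from 95.3 to 95.9 kb held 250, 300, 150, 0 and 0 bp. Wnt8b, a forebrain ligand, was likewise not covered at its promoter (0 bp, and 50 bp in R500), yet 16.7 to 20.4 kb downstream of its start 350 bp lay in peaks for Parental, 1800 for R100, 1750 for R500, 650 for R1000 and 150 for R4000. Wnt3a and Wnt4, the first a canonical ligand of the tail bud and the second a ligand of kidney and gonad, had at most 100 promoter bp in any line. Wnt2 and Wnt5a had no covered base in promoter or body.

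More neighbouring ligands lay on chromosome 11. Over Wnt3 and Wnt9b (chr11:103588678-103679271) 550 bp lay in peaks for Parental, 3000 for R100, 1750 for R500, 800 for R1000 and 100 for R4000. Over Wnt3a and Wnt9a (chr11:59061535-59147054) the values were 50, 1400, 900, 0 and 0 bp. Like Wnt6 with Wnt10a, both regions had less in R4000 than in Parental, by a single bin of 50 bp for Wnt3a and Wnt9a, whereas Wnt1 and Wnt10b had more. Over all 19 Wnt promoters the covered bases were 4.31, 3.69, 1.20 and 0.785 times the Parental sum in R100, R500, R1000 and R4000.

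Among the receptors, Fzd4, which also serves as the Norrin receptor in retinal vessels, had the most covered promoter bases of any member in Parental. Its promoter on chromosome 7 (gene chr7:96552876-96558620) had 1625 bp for Parental, 2500 for R100, 1725 for R500, 1250 for R1000 and 700 for R4000. It ranked 52nd of all genes in Parental, and 87th, 299th, 122nd and 241st in the resistant lines. R1000 and R4000 differed from Parental by -375 and -925 bp, although within 1 kb of the TSS R1000 was 200 bp above it and R4000 differed by -100 bp. The R100 gain of Fzd4 was lost at equal covered length, where R100 differed from Parental by -375 bp. The widest stretch shared by all 5 lines among the 37 promoters, 400 bp, lay 175 to 574 bp downstream of the Fzd4 TSS and holds the coding sequence printed above.

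Fzd7 and Fzd2, both intronless genes, were thinly covered in Parental and broadly covered in R100 and R500. Fzd7, a receptor prominent in stem and progenitor cells, had 150 promoter bp for Parental, 1650 for R100, 1900 for R500, 750 for R1000 and 250 for R4000. Fzd2 had 150, 1250, 1700, 250 and 650 bp. R4000 exceeded R1000 at Fzd2, and R1000 exceeded R4000 at Fzd7. Once the lists were cut to equal covered length, Fzd2 had no covered base in R100 and R500 against 150 bp in Parental, and Fzd7 had 1400 bp for R100 against 0 bp for R500 and for Parental. In the 5 kb upstream Fzd7 in R100 differed from Parental by -150 bp.

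Fzd3, a receptor of axon guidance and planar polarity, had 550 covered promoter bp for Parental, 700 for R100, 1000 for R500, 100 for R1000 and 450 for R4000. It was the only receptor under the minimum in R1000 and above it in the other 4 lines. Its gains in R100 and R500 became differences of -450 bp each at equal covered length, and that in R100 became -150 bp at equal peak number. Fzd5, a receptor needed for Paneth cell maturation, had 0, 100, 400, 0 and 0 bp, and Fzd9, a receptor expressed in brain and bone, had 0, 200, 50, 150 and 0 bp. At equal covered length neither had a covered base in any line. Fzd1, Fzd6, Fzd8 and Fzd10 had no covered base in promoter or body in any line. Summed over the 10 receptors the ratios to Parental were 2.59, 2.74, 1.01 and 0.828.

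Of the antagonists, a single gene in each family was covered. Sfrp2, which binds Wnts through a Frizzled-like domain, had no covered promoter base for Parental, 800 bp for R100, 558 bp for R500, 450 bp for R1000 and 0 bp for R4000. Its promoter was thus covered in the lines of the first 3 doses and in neither Parental nor R4000. Sfrp1, Sfrp4 and Sfrp5 had no covered base in promoter or body in any line. Only the R1000 value of Sfrp2 remained at equal covered length, at 400 bp.

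Dkk3 on chromosome 7 (gene chr7:119259533-119302571) had 700 covered promoter bp for Parental, 1221 for R100, 1050 for R500, 300 for R1000 and 150 for R4000. Its differences from Parental of -400 bp in R1000 and -550 bp in R4000 stayed losses of at least 150 bp under the 6 alternatives that kept that minimum, while only that in R4000 reaches a minimum of 500 bp. Its gains did not, since R100 and R500 had 0 bp against 700 in Parental at equal covered length. There the cut dropped peaks of 750 bp in R100 and 900 bp in R500 and kept the Parental peak of 700 bp. Dkk1, Dkk2 and Dkk4, the antagonists that bind Lrp co-receptors, had no covered base in promoter or body in any line. Thus 12 of the 37 members had none anywhere (32.4%), and 65.1% of all protein-coding genes had no covered promoter base.

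Where in the promoter the mark lay was examined next. Of the 36017 bp covered in at least 1 line over the 37 promoters, 58.4% lay downstream of the TSS. By annotation 14.5% was coding, 9.66% untranslated, 37.8% intronic and 38.1% outside protein-coding genes. Within single lines the downstream share was 61.6, 61.0, 58.3, 70.9 and 71.4% from Parental to R4000. In steps of 100 bp, the step covered in most members lay 800 to 900 bp downstream in Parental (8 members, 21.6%), 300 to 400 and 500 to 600 bp in R100 (15 each, 40.5%), 1000 to 1100 bp in R500 (15), 1100 to 1200 bp in R1000 (7, 18.9%) and 900 to 1000 bp in R4000 (6, 16.2%). Over all protein-coding genes it lay between 200 and 700 bp downstream in each line and reached 11.0% at most.

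**Figure D4:**
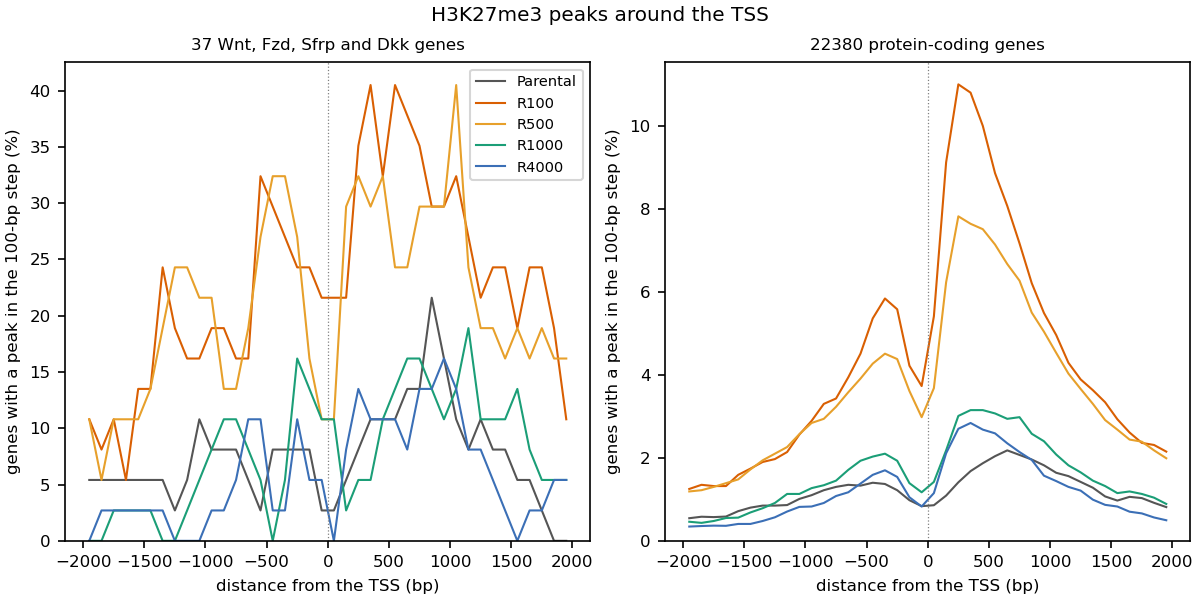
Percent of genes with a peak in each 100-bp step (vertical axes, on different scales) by distance from the TSS in bp for the 37 Wnt, Fzd, Sfrp and Dkk genes (left) and 22380 protein-coding genes (right), 1 curve per line. The left curves of R100 and R500 reach 40.5% and are broader than the right ones. The right curves dip at the TSS, and so do the left curves of Parental (2.70%) and R500 (10.8%).

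Peaks in these promoters numbered 39 for Parental, 78 for R100, 76 for R500, 34 for R1000 and 32 for R4000. Their median width was 100, 200, 200, 150 and 150 bp, where the median of all peaks was 100 bp in each list. The widest reached 750, 1550, 3300, 1200 and 500 bp, the broadest being the R500 peak over Wnt1. Peaks of at least 500 bp made up 10.3, 24.4, 19.7, 11.8 and 3.12% of those in member promoters and 5.09, 8.93, 9.72, 6.51 and 5.18% of all peaks, so the share was above that of the list in each line except R4000.

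The overlap with the Parental bases was then counted. Of the 7506 bp covered in Parental, 84.3, 82.9, 41.3 and 29.3% also lay in peaks of R100, R500, R1000 and R4000, where the values over all protein-coding promoters were 72.9, 74.8, 48.2 and 34.5%. As a share of each line's own covered bases the same overlap ran the other way, at 23.4, 25.5, 36.7 and 39.3%, beside lists of unequal length. A core of 12 stretches, 1700 bp in 9 members, was covered in all 5 lines. These lay in Wnt1, Wnt6, Wnt10a, Wnt10b, Fzd2, Fzd3, Fzd4, Fzd7 and Dkk3, whereas Wnt16 was covered in all lines without a base common to them.

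The sequence around the start was then compared with coverage, in the 1 kb on each side of the TSS. The 37 genes had a median GC content of 60.0% and a median CpG observed/expected ratio of 0.658, against 51.2% and 0.468 for all protein-coding genes, and 24 of them (64.9%) were CpG-rich, defined as at least 50% GC and a ratio of at least 0.6, against 29.8% of all. Of the 24 CpG-rich members 7, 15, 13, 8 and 6 were covered from Parental to R4000 (29.2, 62.5, 54.2, 33.3 and 25.0%), where 10.6, 33.5, 25.9, 14.5 and 12.3% of all 6666 CpG-rich genes were. The comparison with CpG-rich genes was chosen after the values had been seen. The shares of the CpG-rich members were above those of CpG-rich genes in each line, and the distance was smaller than that between all 37 members and all genes.

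Within the group, the 22 members covered in at least 1 line had a median ratio of 0.660 and 16 of them (72.7%) were CpG-rich. The 9 covered in all 5 lines had a lower median ratio of 0.509 and 4 of them (44.4%) were CpG-rich, while the 15 covered in no line had a median of 0.611 and 8 (53.3%) were. Wnt1, Wnt10a, Wnt10b, Wnt16 and Dkk3 were covered in every line with ratios of 0.481, 0.370, 0.509, 0.401 and 0.474. Sfrp1 had the highest ratio of the members with no peak, 0.849. Over all protein-coding genes the covered share in R100 rose from 0.242% in the lowest step of the ratio to 36.8% in the highest, which held 57 genes. The hexamers CAGGTG and CACCTG, the same E-box read on either strand, occurred from 250 bp upstream to 50 bp downstream of the TSS in 9 members (24.3%) and in 19.9% of all genes.

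**Figure D5:**
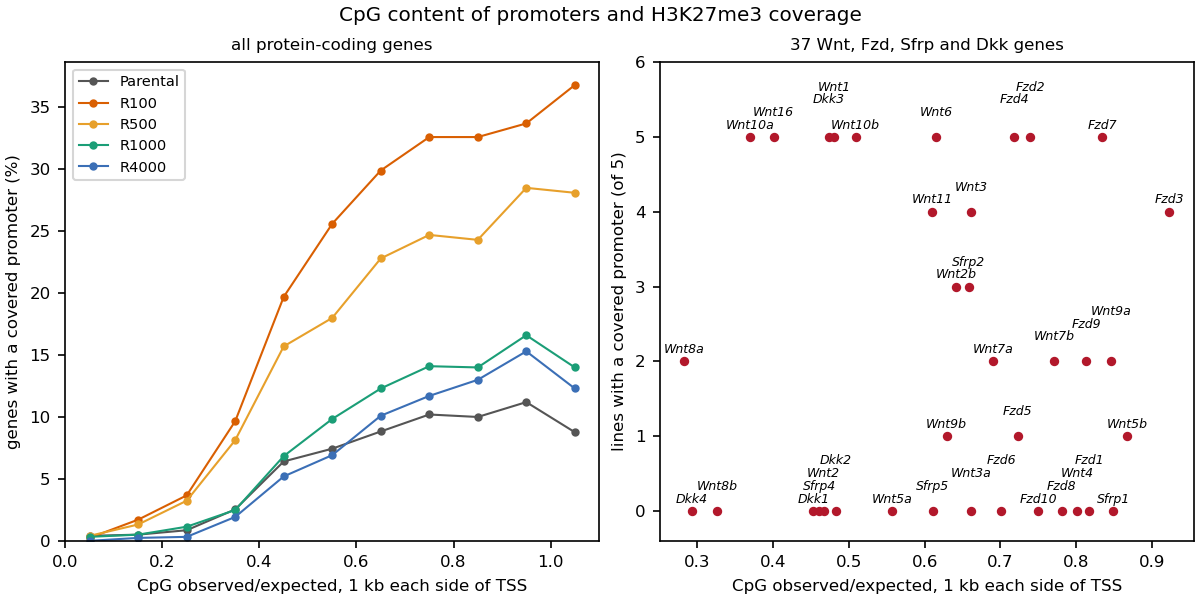
Left, percent of protein-coding genes with a covered promoter against CpG observed/expected ratio in steps of 0.1, 1 curve per line. Right, the ratio of each of the 37 genes against the number of lines, of 5, in which its promoter was covered; genes covered in 5 lines span 0.370 to 0.834 and those covered in none 0.293 to 0.849.

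The rest of the pathway was read from a list of 53 symbols, of which 52 were in the annotation. Covered promoters numbered 8 for Parental (15.4%), 21 for R100 (40.4%), 18 for R500 (34.6%), 10 for R1000 (19.2%) and 5 for R4000 (9.62%). Of all protein-coding genes 5.25, 17.4, 13.3, 6.92 and 5.50% were covered in the same order. More bases than in Parental were covered at 20 in R100 (38.5%) and 16 in R500 (30.8%) and fewer at 0 in either. Of all protein-coding genes 16.7 and 12.5% had more and 0.268 and 0.232% fewer. Of CpG-rich genes 32.2 and 24.2% had more. In R1000 the counts were 4 and 3, against 4.04 and 1.81% of all, and in R4000 3 and 2, against 2.68 and 2.98%. Notum, an enzyme that inactivates Wnts by removing their lipid, had 1750 covered promoter bp for Parental, 3061 for R100, 3011 for R500, 1511 for R1000 and 1911 for R4000. Its Parental value was above that of the promoter of any of the 37 members. Tle2, a co-repressor of Tcf factors, had 800, 2595, 2050, 850 and 700 bp. The receptor Lgr6 and its ligand Rspo1, which potentiate Wnt signals, were also covered in all lines, at 150, 1150, 1347, 350 and 600 bp and 200, 723, 1000, 300 and 150 bp.

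Several components had little or no coverage in Parental and more in R100 and R500. The co-receptor genes Lrp5 and Lrp6 had 800 and 300 bp in R100 and 550 and 450 bp in R500, against 0 in Parental and R4000. Kremen2, which acts with Dkk proteins on those co-receptors, had 0, 1046, 750, 250 and 0 bp, and Ctnnbip1, an inhibitor of the binding of β-catenin to Tcf factors, 100, 400, 450, 150 and 0 bp. The repressive factor gene Tcf7l1, at 50 bp in Parental, had 1052, 1100, 400 and 100 bp in the resistant lines. The central intracellular components Ctnnb1, Apc, Axin1, Gsk3a and Gsk3b had no covered promoter base in any line. The same held for 40.4% of the 52 pathway genes and 65.1% of all protein-coding genes. Of their relatives, Apc2, Dvl1 and Dvl2 also had none, whereas Axin2 had 150 bp in R100 and Dvl3 100 bp in R100. Csnk1a1 had 250 bp in R500.

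As a comparison family, 44 genes were taken by the symbols Fgf, Bmp and Gdf, and not all of them encode secreted signals. They had 6 covered promoters for Parental (13.6%), 13 for R100 (29.5%), 10 for R500 (22.7%), 7 for R1000 (15.9%) and 6 for R4000 (13.6%). Covered in all 5 lines were 5 of them (11.4%), against 3.17% of all protein-coding genes: Bmp1, Fgf8, Fgf9, Fgf15 and Gdf11. From Parental to R4000 Bmp1 had 300, 1250, 1150, 300 and 600 bp and Fgf8 850, 1745, 2295, 850 and 400 bp. Fgf9 had 233, 933, 1233, 1433 and 583 bp and Fgf15 750, 2000, 2600, 300 and 450 bp. Gdf11 had 300, 950, 1100, 400 and 350 bp. Bmp8a resembled Wnt11 in being covered in all 4 resistant lines and not in Parental, at 100, 1200, 950, 700 and 550 bp. Bmp6 and Fgf18 were covered in R100 and R500 alone, at 0, 650, 444, 0 and 0 bp and 0, 550, 250, 0 and 0 bp. The summed covered bases of the 44 were 4.31, 4.03, 1.52 and 1.05 times those of Parental in R100, R500, R1000 and R4000. The Wnt, Fzd, Sfrp and Dkk shares were higher in each line, and the Wilson intervals of the 2 families overlapped in each. A set of 40 entries for Hox genes, classical Polycomb targets added after the lists were fixed, lay above the 37 members, with 57.5, 82.5, 82.5, 60.0 and 45.0% covered from Parental to R4000. Whether the families differ was not tested.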

How the data were processed

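ChIP-seq for H3K27me3 was analysed in 5 lines, 1 peak list per line. Per the labels and the study's methods, chromatin was precipitated with an H3K27me3 antibody, sequenced in 50-bp reads, and peaks were called by the authors against input libraries with Poisson statistics in windows. Bowtie and mm9 are named in the submitters' processing notes. The values the authors deposited are positions in bp (chromosome, start, end), with no score. The threshold of the lists, and whether replicates were pooled, are not given in the sources used here. R100 and R500 peaks are listed 2 times and were counted once. The 5 RRBS samples were not analysed here, and 1 marker gene is not reported here.

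The members and gene lists were chosen with earlier results of these data known. Covered bases were counted in Python 3.11.15 with numpy 2.4.6 against the GENCODE annotation of NCBIM37, from each gene's 5′ end. No peak passed a chromosome end. Counts were tested on simulated data (0 of 2000 windows differed from a base-by-base count, and 200 of 200 made gains were found) and checked with bedtools 2.31.1 (0 of 185 values differed). Values are given for every member covered in any line. From the pathway list and the Fgf, Bmp and Gdf list, at most 8 genes each were named by rule, by summed covered bases. These were covered in all 5 lines, or not in Parental but in at least 2 resistant lines. Lrp6, Axin2, Dvl3, Csnk1a1 and the named components with no covered base were chosen after their values were seen. No test between lines was possible with 1 list each, and Wilson intervals cover counting only. Alternatives were the minimum (50 or 500 bp), the window, the start, peaks wider than 50 bp, and lists cut to equal number (6820 peaks) or equal covered length. Figures were drawn with matplotlib 3.10.9.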

Additional observations from a re-analysis of the deposited data

Results flagged for a closer look

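Summed over the 37 promoters, covered bases moved in opposite directions from Parental. R100 had 3.61 times, R500 3.25 times and R1000 1.12 times the Parental sum, and R4000 had 0.746 times. The lines are 1 list each, and the difference in direction was not tested. The covered length of the lists moved the same way except in R1000, at 1.63 Mb in Parental, 5.04 Mb in R100, 4.53 Mb in R500, 1.61 Mb in R1000 and 1.07 Mb in R4000, and its part in the ratios was not tested.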

How the results depend on the processing

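No paired analysis was possible because each line has 1 list and no test was made. Depth is unknown and limits every difference between lists. Of the count and sum results under the alternatives, 105 values were unchanged in direction and within 1.5 times the reported one. With a minimum of 500 bp, covered promoters numbered 6 in Parental, 7 in R1000, 6 in R4000 and 3 in all 5 lines, members with more bases 10 in R500 and 3 in R1000, and members with fewer 0 in R1000 and 3 in R4000. With 50 bp, 5 had more and 10 fewer in R4000. With 1 kb on each side, 7 were covered in Parental and 4 in all 5 lines, and 5 had more in R4000. In the 5 kb upstream, 6 were covered in R1000, 5 in R4000 and 1 in all 5 lines, 1 had fewer in R100 and 3 more in R1000, and the R1000 sum was 0.883 times Parental, a reversal. With lists of equal number, 1 had fewer in R100 and 5 more in R4000. With lists of equal covered length, 7 were covered in R100, 7 in R500 and 4 in all 5 lines, R100 had 5 with more and 7 with fewer, R500 6 and 6, R4000 5 with more, and the sums were 1.57 times Parental in R100 and 1.52 in R500. For these alternatives no share of all protein-coding genes was computed. The cause of these changes was not tested.

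For single genes, 289 of 360 differences from Parental kept their direction and minimum, 54 fell under the minimum and 17 reversed. Reversed with equal covered length were Dkk3 (-700 bp in R100 and in R500), Fzd2 (-150 bp in both), Fzd3 (-450 bp in both), Wnt16 (-150 bp in both), and Fzd4 (-375 bp), Wnt10b (-250 bp) and Wnt2b (-150 bp) in R100 and Wnt3 (-300 bp) in R500. The others were Fzd3 in R100 with equal number (-150 bp), Fzd4 in R1000 with 1 kb (200 bp), and, 5 kb upstream, Fzd7 in R100 (-150 bp), Wnt1 in R4000 (-100 bp) and Wnt10a in R4000 (250 bp). Under each of the 6 alternatives that kept the minimum of 150 bp, 4 of 21 gains held in R100 (Wnt1, Wnt3, Wnt10a, Wnt11), 5 of 18 in R500 (Wnt2b, Wnt6, Wnt10a, Wnt10b, Wnt11), 3 of 6 in R1000 (Wnt3, Fzd7, Sfrp2) and 2 of 3 in R4000 (Wnt11, Fzd2). Losses held for 2 of 6 in R1000 (Wnt2b, Dkk3) and 3 of 6 in R4000 (Wnt3, Wnt6, Dkk3).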
